A study of Mus musculus with 8 samples.

Results

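The genes described here encode the proteins of the cytosolic ribosome. They were taken by name alone, as the rows whose mouse symbol is Rpl or Rps followed by a number (with or without a, x, l, al or l1), or is Rplp0, Rplp1, Rplp2 or Rpsa, and the rule uses no measured value. This gave 83 of 23302 rows. Large-subunit proteins (Rpl) accounted for 46 of them and small-subunit proteins (Rps) for 30. The other 7 were paralogs whose symbols end in l or l1, namely Rpl3l, Rpl7l1, Rpl10l, Rpl22l1, Rpl36al, Rpl39l and Rps27l.

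RNA was sequenced from naive splenic B cells of C57BL/6 mice in 8 libraries, 2 for each of 4 groups. The groups were B-EBi3- mice bearing a tumor, B-EBi3- mice without a tumor, WT mice bearing a tumor and WT mice without a tumor, from a study of pancreatic cancer. The genotype B-EBi3- is written BEBi3-/- in the design text, and the sources used here do not say how the gene was removed or give the age of the mice. The label WT in the tumor status field was read as no tumor, and every tumor comparison rests on that reading. Ebi3, which encodes a subunit shared by the cytokines IL-27 and IL-35, had 8.70 and 11.0 normalized counts in B-EBi3- tumor libraries, 12.8 and 11.5 in B-EBi3- nontumor libraries, 201 and 164 in WT tumor libraries, and 8.94 and 11.0 in WT nontumor libraries. In tumor libraries Ebi3 was thus lower in B-EBi3- than in WT mice, the direction that the genotype label gives. WT nontumor libraries were as low as the B-EBi3- libraries, so a low count alone does not show loss of the gene. The WT tumor libraries also differ in other ways given below, so Ebi3 cannot settle the genotype label.

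Depth was 21291892 to 28297319 reads per library. The WT tumor libraries stood apart from the other groups in 2 ways that the groups do not explain. Their titles carry the prefix IV and not OT, and Xist, the RNA of the inactive X chromosome, had 19758 and 26191 normalized counts in them against 5.59 to 18.3 in the other 6 libraries, while the Y-linked Eif2s3y was at 0 in both and between 2355 and 2984 elsewhere. Comparisons that use the WT tumor libraries carry these differences, which cannot be told apart from tumor or genotype. The B-EBi3- tumor libraries were unusually alike: their chi-square per degree of freedom was 2.01, over 13066 genes above a minimum read number in the pair. It was 13.1 to 20.3 for the pairs of the other groups, over 12502 to 13256 genes. B cell identity genes such as Ms4a1 and Cd79a took 2.24% to 2.63% of reads in every library.

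A cytosolic ribosome is built from a large and a small subunit, each a scaffold of ribosomal RNA with its own set of proteins. The small subunit reads the mRNA while the large one joins amino acids. Most mRNAs for these proteins begin with a short pyrimidine tract (a TOP element), through which mTORC1 signaling and Larp1 set their translation and stability together with those of elongation factors. Resting B cells hold few ribosomes and build more when they are activated. In bulk RNA such as this, fewer cells of a type and less RNA per cell cannot be told apart, and every value is relative to the whole library.

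Ribosomal protein genes took 17.58% and 17.66% of reads in the B-EBi3- tumor libraries, against 20.87% and 21.40% in the B-EBi3- nontumor libraries. In WT they took 9.986% and 8.581% of reads in tumor libraries, against 22.99% and 23.46% in nontumor libraries (95% Wilson intervals were within 0.0178 percentage points and cover counting error only). Both tumor groups thus lay below both nontumor groups, and the WT tumor libraries lay lowest. The means were 17.6% ± 0.0521 and 21.1% ± 0.377 in B-EBi3- tumor and nontumor mice, and 9.28% ± 0.993 and 23.2% ± 0.335 in WT tumor and nontumor mice (SD, n = 2 each). These sums were not tested: with 2 libraries against 2, an exact two-sided permutation test cannot go below p = 0.333.

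**Figure D1:**
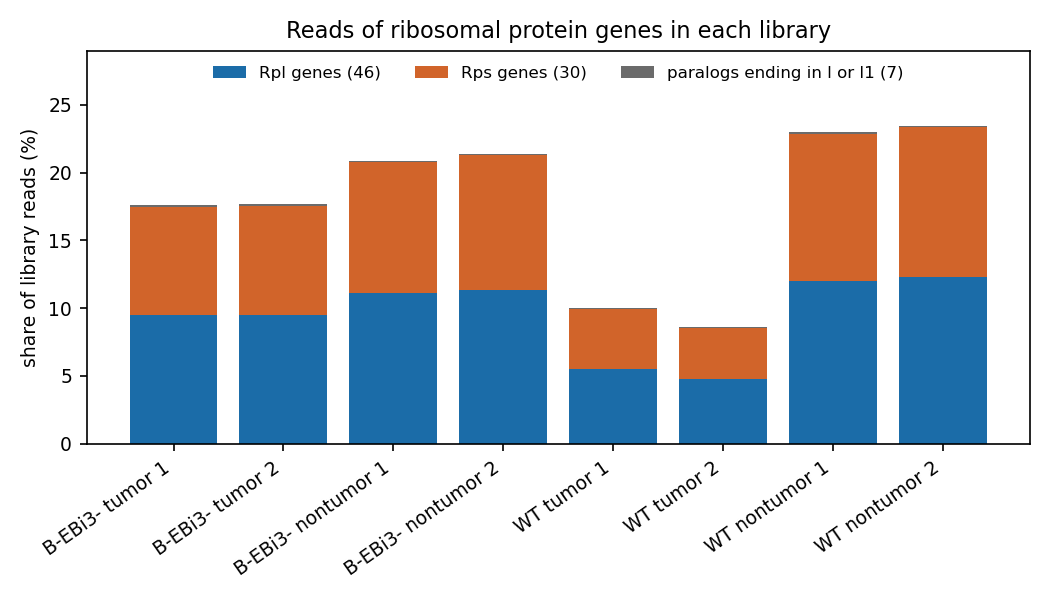
Share of each library's reads (y axis, %) taken by Rpl genes, Rps genes and paralogs, stacked, in the 8 libraries (x axis). The bars reach 17.58% and 17.66% in B-EBi3- tumor, 20.87% and 21.40% in B-EBi3- nontumor, 9.986% and 8.581% in WT tumor, and 22.99% and 23.46% in WT nontumor libraries.

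The 2 subunits did not shift by quite the same amount. Reads of Rps genes per read of Rpl genes were 0.846 and 0.849 in B-EBi3- tumor libraries, against 0.871 and 0.876 in B-EBi3- nontumor libraries. In WT the ratio was 0.793 and 0.790 in tumor libraries, against 0.900 and 0.898 in nontumor libraries. The ratio was lower with a tumor in both genotypes, and replicates differed by less than the groups did. Which subunit had the larger median log2 difference depended on the scaling. With quantile normalization the tumor medians were -0.64 (Rpl) and -0.63 (Rps) in WT, and -0.05 (Rpl) and -0.08 (Rps) in B-EBi3-.

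In WT mice, every ribosomal protein gene tested was lower with a tumor. All 81 members with a mean of at least 10 normalized counts were called lower and 0 higher (limma on log2 of the value plus 1, adjusted p below 0.05), where 40.1% of the 13011 genes tested were called lower and 39.6% higher. The median log2 difference was -1.72 for the 46 Rpl genes (3.30-fold lower) and -1.90 for the 30 Rps genes (3.74-fold lower), against 0.01 for all genes. The differences ran from -3.41 (Rpl39l) to -0.40 (Rpl7l1). Both tumor libraries lay below both nontumor libraries for all 81, as they did for 45.6% of genes. The size of this fall depended on how libraries were scaled: with quantile normalization 71 were lower and 4 higher, with medians of -0.64 (Rpl) and -0.63 (Rps), and after removal of the dependence on transcript length and GC content within each library 78 were lower and 1 higher, with medians of -0.64 and -0.75.

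**Figure D2:**
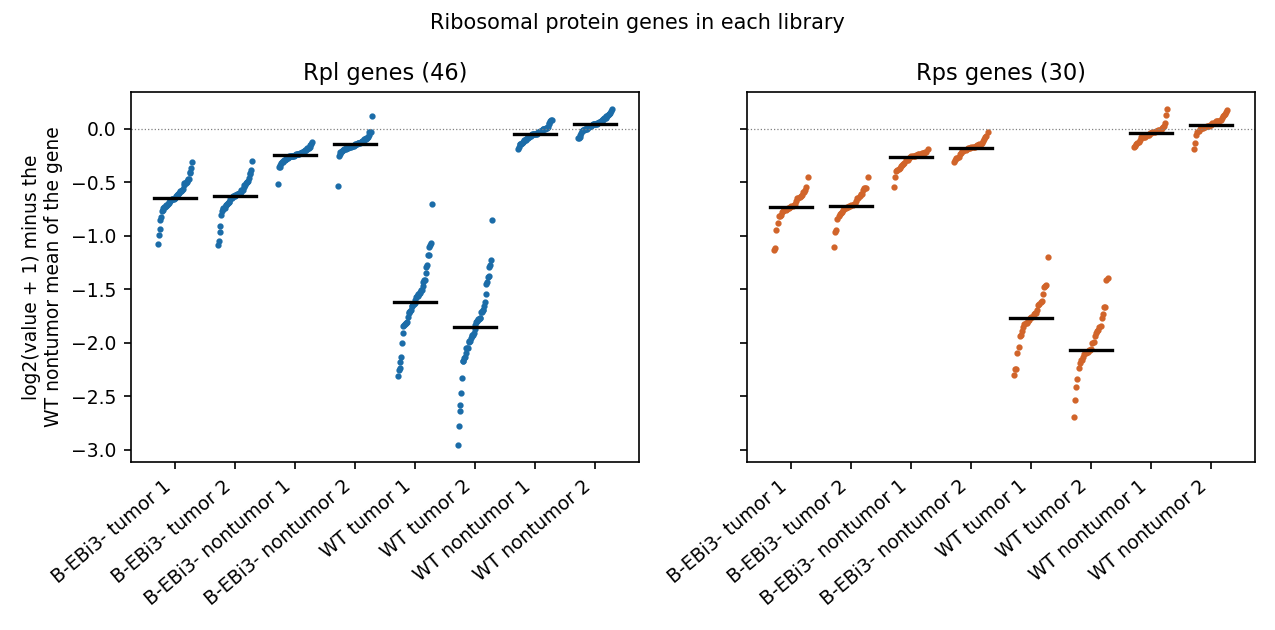
Each point is 1 gene in 1 library (x axis), as log2 of the normalized count plus 1 minus the gene's mean in the 2 WT nontumor libraries (y axis); bars are medians. Rpl medians are -0.64 and -0.62 in B-EBi3- tumor, -0.24 and -0.14 in B-EBi3- nontumor and -1.62 and -1.85 in WT tumor libraries, and the Rps medians of the WT tumor libraries are -1.77 and -2.06.

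The largest falls in WT among large-subunit genes were those of Rpl36, Rplp1 and Rpl41. Rpl36 (ENSMUSG00000057863.6, chr17:56613416-56614243 in GRCm38), a large-subunit gene, had 6461 and 4123 normalized counts in WT tumor libraries, against 29877 and 34274 in WT nontumor libraries. Its log2 difference was -2.63 ± 0.176 (SE; adjusted p = 2.88e-06, limma with Benjamini-Hochberg adjustment). Rpl41 encodes the smallest ribosomal protein, a single helix that lies between the subunits, and had 18531 and 14604 normalized counts in WT tumor libraries against 88314 and 85969 in WT nontumor libraries, a log2 difference of -2.41 ± 0.116 (limma adjusted p = 6.61e-07). The tumor and nontumor values of both genes were far apart.

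Among small-subunit genes, Rps21, Rps12 and Rps14 fell most in WT. Rps21 (ENSMUSG00000039001.12, chr2:180257377-180258445) had 13234 and 10121 normalized counts in WT tumor libraries, against 64097 and 66560 in WT nontumor libraries (log2 difference -2.50 ± 0.120, limma adjusted p = 6.61e-07). Rps12, a protein of the subunit's head, had 33705 and 27443 in WT tumor libraries against 155449 and 163057 in WT nontumor libraries, a log2 difference of -2.39 ± 0.115. Rps14, whose human counterpart is lost in the 5q- syndrome, had 26429 and 21218 in WT tumor libraries against 111120 and 114087 in WT nontumor libraries, a log2 difference of -2.25 ± 0.113. In all 3 genes the lower WT tumor library was replicate 2, as in 79 of the 81 members (median log2 gap between the WT tumor replicates -0.24).

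At the other end, Rpl4, which lines the exit tunnel for the new protein, fell least among genes that are not paralogs. It had 60771 and 54888 normalized counts in WT tumor libraries, against 99538 and 98649 in WT nontumor libraries (log2 difference -0.78 ± 0.0964, limma adjusted p = 7.86e-05). Rpl21 followed at -1.15 ± 0.0974, with means of 34631 ± 2649 in WT tumor and 76616 ± 122 in WT nontumor libraries (SD, n = 2 each). The smallest fall among Rps genes was that of X-linked Rps4x, at -1.30 ± 0.117. Rps4x had 62011 and 54282 normalized counts in WT tumor libraries, against 137222 and 148229 in WT nontumor libraries. With quantile normalization 9 members had a positive difference, namely Rpl3, Rpl4, Rpl5, Rpl6, Rpl7, Rpl10, Rpl21, Rpl23 and Rps4x, and Rpl4 then stood at 0.61. With the length and GC trend removed, Rpl4 stood at -0.34 and Rpl7l1 was the single member with a positive difference.

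To show what lies at the starts of genes at both ends of this order, windows from 40 bases before to 20 bases after the annotated start are printed from RefSeq (GRCm38.p6), 5′ to 3′ on the gene's strand. Capitals mark CTTTC or CTTCC, the pyrimidine runs searched on that strand. Rps21 has a pair of annotated starts, at chr2:180257339-180257398 and chr2:180257409-180257468 (+). The others are Rps12 at chr10:23787190-23787249 (-), Rpl41 at chr10:128549149-128549208 (-), Rpl4 at chr9:64173347-64173406 (+), Rps4x at chrX:102189372-102189431 (-) and Rpl7l1 at chr17:46782637-46782696 (-).
Rps21 upstream start: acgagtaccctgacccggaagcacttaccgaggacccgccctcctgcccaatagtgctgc
Rps21 downstream start: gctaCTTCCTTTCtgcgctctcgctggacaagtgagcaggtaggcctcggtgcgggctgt
Rps12: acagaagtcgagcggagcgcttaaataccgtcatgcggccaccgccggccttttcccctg
Rpl41: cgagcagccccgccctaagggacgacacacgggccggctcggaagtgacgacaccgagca
Rpl4: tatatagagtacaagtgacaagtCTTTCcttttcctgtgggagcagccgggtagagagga
Rps4x: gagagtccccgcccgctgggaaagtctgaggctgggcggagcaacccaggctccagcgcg
Rpl7l1: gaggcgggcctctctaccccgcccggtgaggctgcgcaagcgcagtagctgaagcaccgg

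Of the 83 members, 63 had a promoter sequence in the RefSeq table. CTTTC lay in the start window of 33.3% of them (44.1% of Rpl, 22.7% of Rps), against 9.42% of all 27025 genes of the table. CTTCC lay in the window of 31.7% of members and 14.8% of genes. CCGGAAG on either strand of the 300 promoter bases, whose reverse complement holds CTTCC, was found in 39.7% of members and 9.93% of genes, and AAGATGGC on either strand in 9.52% and 3.19%. TATAAA within 60 bases before the start was found in 1.59% of members and 3.44% of genes. The 34 tested members with CTTTC or CTTCC in the window had a median log2 difference of -1.87 in WT, and the 27 without had -1.79, and the ranges of both sets overlapped.

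The mRNAs for proteins of the lateral stalk, which recruits the translation GTPases, did not fall equally. Rplp1 had 19900 and 13875 normalized counts in WT tumor libraries against 83308 and 108147 in WT nontumor libraries, and Rplp2 had 15792 and 11066 in WT tumor libraries against 61303 and 77678 in WT nontumor libraries. The log2 differences of the mRNAs for these small acidic proteins were -2.51 ± 0.173 and -2.38 ± 0.166. Rplp0, the long protein that anchors both to the ribosome, had 47832 and 39023 in WT tumor libraries against 141120 and 169175 in WT nontumor libraries, a difference of -1.84 ± 0.131. Rpsa, a small-subunit protein whose human gene is mutated in congenital absence of the spleen, had 65070 and 54011 in WT tumor libraries against 197460 and 233289 in WT nontumor libraries, a difference of -1.86 ± 0.132.

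In B-EBi3- mice the direction was the same and the differences were smaller. With a tumor, 71 of the 81 members were called lower and 0 higher, against 18.5% of genes called lower and 14.1% higher, and the median log2 differences were -0.44 (Rpl, 1.35-fold lower) and -0.47 (Rps, 1.38-fold lower) against -0.01 for all genes. Both tumor libraries lay below both nontumor libraries for all 81 members, as for 39.0% of genes. The 10 not called were Rpl4, Rpl5, Rpl7, Rpl7l1, Rpl17, Rpl21, Rpl34, Rps4x, Rps24 and Rps27. The calls hung on few libraries. Most were lost without either B-EBi3- tumor replicate, with these alike libraries averaged as 1 sample, or without B-EBi3- nontumor replicate 2. In these fits members were called little or no more often than all genes. All 81 differences stayed negative in them, with medians of -0.44 to -0.38 (Rpl) and -0.47 to -0.40 (Rps). With quantile normalization 6 were lower and 1 higher, where 2130 of 13011 genes were lower and 2477 higher, and 25 of 81 differences were positive.

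Apart from the low-count paralog Rpl39l, Rplp1 fell most in B-EBi3- mice, with 44923 and 45965 normalized counts in tumor libraries against 81409 and 83684 in nontumor libraries (log2 difference -0.86 ± 0.173, limma adjusted p = 0.00973). Rps12 followed, with 73403 and 74062 in tumor libraries against 123197 and 130264 in nontumor libraries (-0.78 ± 0.115, limma adjusted p = 0.00249). Rplp2 and Rpl36 also fell, at -0.74 ± 0.166 and -0.74 ± 0.176. Rplp2 averaged 35080 ± 501 in tumor and 58549 ± 101 in nontumor libraries, and Rpl36 averaged 16891 ± 175 in tumor and 28231 ± 332 in nontumor libraries (SD, n = 2 each). Rps21 had 33928 and 33895 in tumor libraries against 55625 and 52672 in nontumor libraries, a log2 difference of -0.67 ± 0.120. Rps27 differed by -0.74 ± 0.260 and was not called (limma adjusted p = 0.0574). Smaller differences were those of Rps6, the target of S6 kinase, at -0.34 ± 0.106 (limma adjusted p = 0.0392), Rps4x at -0.31 ± 0.117 (not called) and Rpl4 at -0.22 ± 0.0964 (not called).

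**Figure D3:**
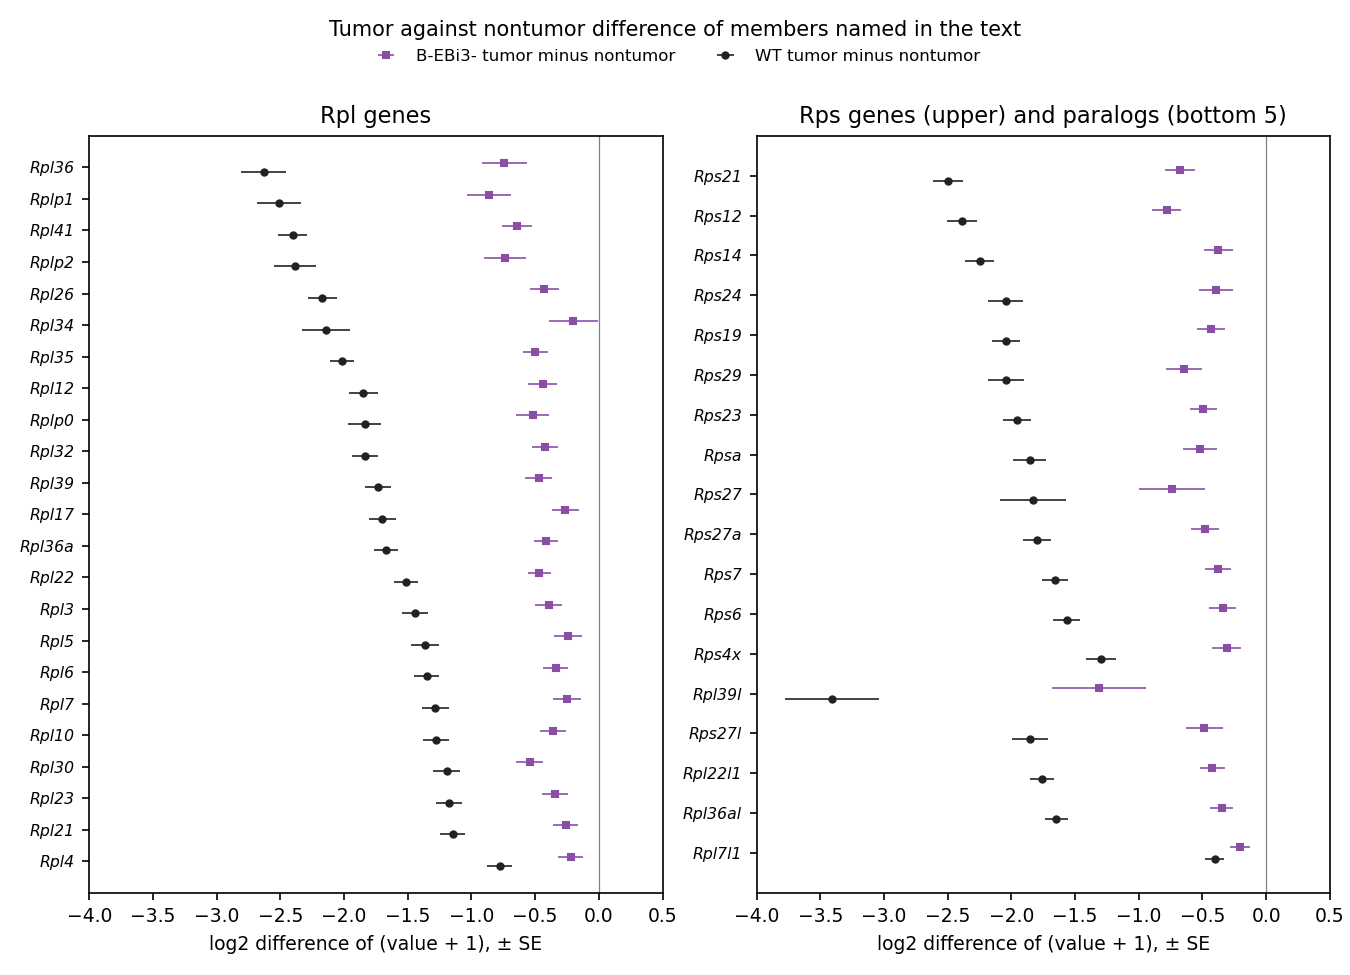
Log2 difference of the normalized count plus 1 (x axis, ± SE from limma) for the members named in the text (y axis) between tumor and nontumor mice, squares for B-EBi3- and circles for WT, ordered by the difference in WT. All 81 differences, those of genes not drawn included, are below 0 in both genotypes, from -3.41 (Rpl39l) to -0.40 (Rpl7l1) in WT, although 9 in WT and 25 in B-EBi3- turn positive with quantile normalization and 1 in each (Rpl7l1 in WT, Rpl34 in B-EBi3-) with the length and GC trend removed.

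The 2 tumor comparisons share no library, and the order of the genes was alike in both. Over 73 members, leaving out the paralogs and the 3 genes with abundant copies described below, Pearson's r between the differences was 0.72 and Spearman's rho 0.62 (0.80 and 0.69 over 43 Rpl genes, 0.52 and 0.43 over 30 Rps genes). These are descriptions across genes, which are not independent and share length and base composition. Coding length ran along with the size of the fall in both genotypes. Spearman's rho between the difference and log2 coding length was 0.53 in B-EBi3- and 0.43 in WT, with shorter genes lower in tumor libraries. The 25 genes with the shortest coding sequences (75 to 405 bases) had medians of -0.51 in B-EBi3- and -1.89 in WT, and the 24 with the longest (582 to 1257 bases) had -0.39 and -1.71. Across 12858 genes the rho with log2 transcript length was 0.24 in B-EBi3- and 0.42 in WT. With that trend and the one on GC content removed, the medians in B-EBi3- were -0.19 for Rpl and -0.23 for Rps genes. Of 81 members 34 were then called lower, where 2429 of 12858 genes were.

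**Figure D4:**
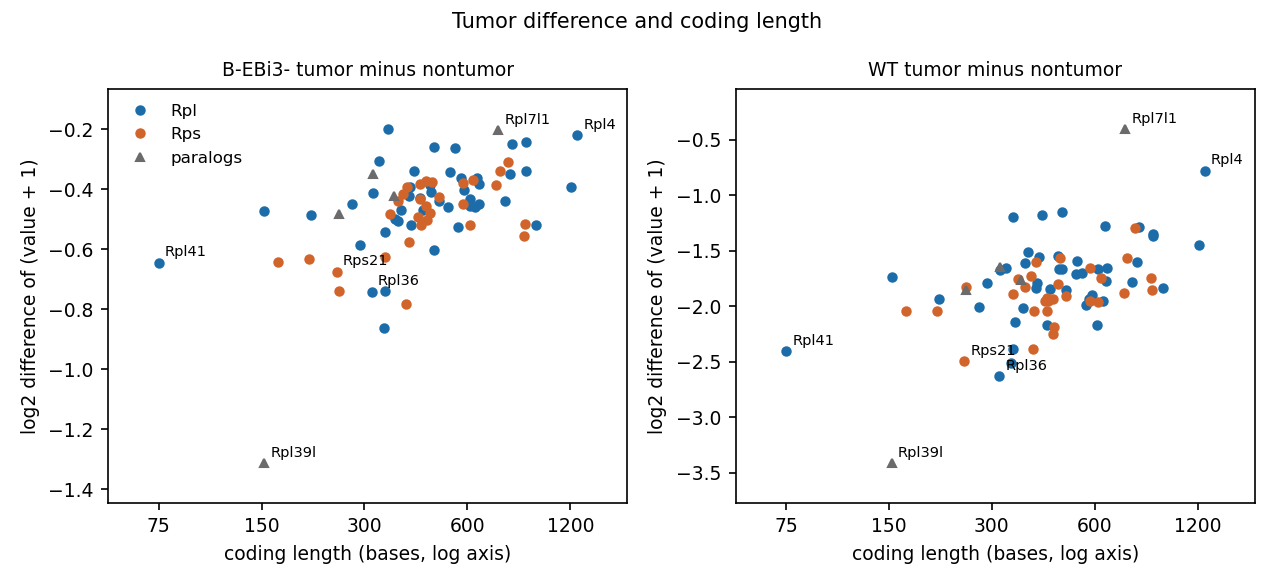
Tumor minus nontumor log2 difference of each gene (y axis) against its coding length in bases (x axis, log scale) in B-EBi3- (left) and WT (right), with Rpl, Rps and paralogs marked apart. Shorter genes lie lower in both panels (Spearman's rho 0.53 and 0.43 over 73 genes), and Rpl39l lies below and Rpl7l1 above genes of like length.

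Between genotypes, ribosomal protein genes were higher in B-EBi3- than in WT mice with a tumor. Of 81 members 80 were called higher and 0 lower, where 31.9% of genes were called higher and 28.6% lower, and both B-EBi3- libraries lay above both WT libraries for all 81, as for 44.2% of genes. The median log2 difference was 1.10 for Rpl genes (2.14-fold) and 1.19 for Rps genes (2.28-fold). Rpl7l1, at 0.18 ± 0.0756 (limma adjusted p = 0.0700), was the member not called. This comparison uses the WT tumor libraries that also differ in sex and title prefix, and all 14 erythroid and all 14 monocyte and macrophage markers were higher in B-EBi3- too, a shift whose part in the result was not tested. With quantile normalization 69 were higher and 1 lower, with medians of 0.57 (Rpl) and 0.49 (Rps). With the length and GC trend removed 68 were higher and 1 lower, with a median of 0.37 for both subunits.

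Apart from Rpl39l (1.75 ± 0.368), Rpl36 differed most between the tumor groups, with 16767 and 17015 normalized counts in B-EBi3- tumor libraries against 6461 and 4123 in WT tumor libraries (log2 difference 1.71 ± 0.176, limma adjusted p = 9.71e-05). Rps14 had 72521 and 74028 in B-EBi3- tumor libraries against 26429 and 21218 in WT tumor libraries, a difference of 1.63 ± 0.113, and Rps21 differed by 1.55 ± 0.120. Rpl4 differed by 0.47 ± 0.0964, with 80126 and 80258 in B-EBi3- tumor libraries against 60771 and 54888 in WT tumor libraries. Among Rpl genes, Rpl30 (0.65 ± 0.107) and Rpl23 (0.69 ± 0.102) followed Rpl4 at the low end, and among Rps genes the smallest differences were those of Rps27 (0.78 ± 0.260) and Rps4x (0.85 ± 0.117). Quantile normalization turned 5 of the 81 negative, Rpl23 and Rpl4 among them, and removal of the length and GC trend turned 5 negative, Rpl30 and Rps27 among them.

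Without a tumor the genotypes could not be told apart gene by gene. In B-EBi3- nontumor against WT nontumor mice, 0 of 81 members were called by limma, as were 0 of 13011 genes, and edgeR called 0 members. DESeq2 called 1 member, Rpl26, whose own count is uncertain beside an abundant copy, and over all genes it called 10 lower and 11 higher. At an unadjusted p below 0.05, 17 members were lower and 0 higher, where 3.04% of genes were lower and 5.02% higher. All 81 differences were negative, with medians of -0.19 (Rpl) and -0.23 (Rps) against 0.01 for all genes, and both B-EBi3- libraries lay below both WT libraries for 68 members, as for 16.1% of genes. Quantile normalization turned 18 of the 81 positive, leaving out B-EBi3- nontumor replicate 1 turned 2 positive, and leaving out WT nontumor replicate 2 turned 4 positive.

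The lowest unadjusted p-values were those of Rpl26, Rps23, Rps12 and Rps27a, and Rps24 had the largest difference after Rpl26. Rps24, a small-subunit gene mutated in human Diamond-Blackfan anemia, had 189461 and 214374 normalized counts in B-EBi3- nontumor libraries against 282618 and 235469 in WT nontumor libraries (log2 difference -0.36 ± 0.136, limma adjusted p = 0.604). Rps12 had 123197 and 130264 in B-EBi3- nontumor libraries against 155449 and 163057 in WT nontumor libraries, a difference of -0.33 ± 0.115 with the same adjusted p of 0.604 in limma. Rps23, a protein of the decoding site, averaged 93938 ± 5050 in B-EBi3- nontumor and 116663 ± 574 in WT nontumor libraries. Rpl12, a protein at the base of the stalk with a somewhat higher p, averaged 110186 ± 6319 in B-EBi3- nontumor and 132233 ± 2318 in WT nontumor libraries (SD, n = 2 each). Besides Rpl26, Rps23, Rps12 and Rps24, the 10 members with the lowest p-values were Rps27a, Rpl22l1, Rpl32, Rps7, Rps19 and Rpl35, at -0.30 to -0.24. Groups did not overlap in Rps24, Rps12, Rps23 and Rpl12, yet the replicate spread was too large for a call over 13011 genes. Rpl30, at -0.0025 ± 0.107, Rpl7l1, at -0.02 ± 0.0756, and Rpl4, at -0.08 ± 0.0964, were closest to no difference.

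The tumor effect differed between the genotypes by the test of the difference itself. That test uses the WT tumor libraries, whose differences in sex and title prefix cannot be told apart from tumor or genotype. In the interaction, the tumor effect in B-EBi3- minus that in WT, 80 of 81 members were called higher and 0 lower, against 27.5% of genes called higher and 25.4% lower, so the fall was smaller in B-EBi3- mice. The medians were 1.29 for Rpl and 1.40 for Rps genes. Rpl39l (2.10 ± 0.521), Rpl34 (1.94 ± 0.268) and Rpl36 (1.89 ± 0.249) stood at the high end. Rpl7l1 (0.20 ± 0.107, limma adjusted p = 0.145, not called), Rpl4 (0.56 ± 0.136) and Rpl30 (0.65 ± 0.152) stood at the low end. With quantile normalization 67 were higher and 1 lower, with medians of 0.62 (Rpl) and 0.57 (Rps). With the length and GC trend removed 66 were higher and 1 lower, with medians of 0.46 and 0.50.

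The highest levels per coding length were those of the same 4 genes in every group. Per kilobase of coding sequence, Rpl41 ranked 1, Rps24 ranked 2, Rpl39 ranked 3 and Rps29 ranked 4 in all 4 groups. Coding length leaves out the untranslated ends, so these ranks depend on the length used. Rpl41 has 75 coding bases in a transcript of 437, Rps24 399 in 1613, Rpl39 153 in 612 and Rps29 168 in 390. Ranks by transcript length were not made. Rpl41 averaged 655385 ± 16637 normalized counts per kilobase in B-EBi3- tumor, 1024900 ± 42588 in B-EBi3- nontumor, 220897 ± 37026 in WT tumor and 1161890 ± 22112 in WT nontumor libraries (SD, n = 2 each). The level of Rps24 was 384529 ± 1866, 506059 ± 44151, 157160 ± 17260 and 649232 ± 83559 in the same groups. Rps24 and Rpl39 did not differ beyond their spread in WT tumor libraries, where Rpl39 averaged 156756 ± 14723. Further down the ranks moved, above all in WT tumor libraries. Rplp1 ranked 28 in B-EBi3- tumor, 10 in B-EBi3- nontumor, 44 in WT tumor and 10 in WT nontumor libraries, and Rpl23 ranked 30, 36, 6 and 38 in the same groups. In WT the spread between members was smaller with a tumor: the level at the 90th percentile was 2.78 times that at the 10th for Rpl genes in tumor libraries, against 3.16 times in nontumor libraries, and 2.20 times against 2.84 times for Rps genes. In B-EBi3- these ratios were 3.19 with a tumor against 3.15 without for Rpl genes, and 2.79 against 2.70 for Rps genes.

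The paralogs ended in both extremes. Rpl39l, a short large-subunit paralog best known from testis, had 16.5 and 16.5 normalized counts in B-EBi3- tumor libraries, 34.5 and 52.2 in B-EBi3- nontumor libraries, 5.56 and 3.15 in WT tumor libraries and 47.0 and 63.1 in WT nontumor libraries. Its log2 difference with a tumor was -1.31 ± 0.368 in B-EBi3- (limma adjusted p = 0.0291) and -3.41 ± 0.368 in WT (adjusted p = 3.45e-05, limma). Its parent Rpl39 (chrX:37082520-37085402), a protein of the exit tunnel, had 49075 and 47562 in B-EBi3- tumor, 62141 and 72181 in B-EBi3- nontumor, 25577 and 22391 in WT tumor and 79748 and 79406 in WT nontumor libraries. Rpl39l was therefore below 0.08% of Rpl39 everywhere, at 0.034% and 0.035% in B-EBi3- tumor, 0.056% and 0.072% in B-EBi3- nontumor, 0.022% and 0.014% in WT tumor and 0.059% and 0.079% in WT nontumor libraries.

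Reads are assigned to such pairs by the bases at which they differ, so the coding sequences of Rpl39l (chr16:10170226-10174911, + strand) and Rpl39 (- strand) are printed in full from GENCODE M21 (GRCm38), with differing bases in capitals. Over 153 bases they differ at 23, an identity of 85.0%.
Rpl39l: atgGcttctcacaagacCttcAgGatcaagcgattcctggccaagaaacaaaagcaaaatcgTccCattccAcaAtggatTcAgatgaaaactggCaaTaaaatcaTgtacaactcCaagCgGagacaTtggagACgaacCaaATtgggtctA
Rpl39: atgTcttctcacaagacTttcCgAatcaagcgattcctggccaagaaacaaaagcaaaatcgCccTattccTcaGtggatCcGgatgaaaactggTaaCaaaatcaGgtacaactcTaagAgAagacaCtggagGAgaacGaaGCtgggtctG

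Rpl7l1, a distant paralog of Rpl7 with 66.8% identical coding bases, fell least of all members in WT. It had 2957 and 2856 normalized counts in B-EBi3- tumor libraries against 3197 and 3506 in B-EBi3- nontumor libraries, and 2645 and 2497 in WT tumor libraries against 3309 and 3494 in WT nontumor libraries. The WT difference of -0.40 ± 0.0756 was called (limma adjusted p = 0.000995), and it became 0.23 with the length and GC trend removed. Rpl7 itself, a protein of the large subunit, had 49470 and 42956 in WT tumor libraries against 110392 and 114217 in WT nontumor libraries, a difference of -1.28 ± 0.108. Rpl7l1 as a share of Rpl7 was 3.505% and 3.395% in B-EBi3- tumor against 3.38% and 3.30% in B-EBi3- nontumor libraries, and 5.35% and 5.81% in WT tumor against 2.998% and 3.059% in WT nontumor libraries.

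Rpl22l1, which can stand in for Rpl22 in the ribosome, had 10033 and 9606 normalized counts in B-EBi3- tumor, 12296 and 14065 in B-EBi3- nontumor, 4890 and 4360 in WT tumor and 14869 and 16467 in WT nontumor libraries. Its WT difference of -1.76 ± 0.0955 stood beside -1.51 ± 0.0911 for Rpl22, which averaged 10788 ± 1071 in WT tumor and 30739 ± 101 in WT nontumor libraries. As a share of Rpl22 it was 42.4% and 43.5% in WT tumor libraries and 47.8% to 53.7% in the other 6. Rpl36al, an autosomal paralog of X-linked Rpl36a, was at 37.2% to 40.1% of Rpl36a in all 8 libraries, and the WT differences were -1.65 ± 0.0891 for Rpl36al and -1.67 ± 0.0924 for Rpl36a. In B-EBi3- mice they were -0.35 ± 0.0891 and -0.41 ± 0.0924. The X-linked members Rps4x, Rpl10, Rpl36a and Rpl39 differed by -1.30, -1.28, -1.67 and -1.73 in WT, within the range of the other genes.

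In the pair of Rps27 and its p53-responsive paralog Rps27l, Rps27 was uneven between replicates, most of all in WT tumor libraries. Rps27 had 10973 and 12360 normalized counts in B-EBi3- tumor, 16482 and 22941 in B-EBi3- nontumor, 5060 and 9045 in WT tumor and 27395 and 21108 in WT nontumor libraries. It was higher in replicate 2 of WT tumor by 0.84 on the log2 scale, while all other members but Rpl26 (0.01) were lower there. Rps27l had 1320 and 1240 in B-EBi3- tumor, 1583 and 2025 in B-EBi3- nontumor, 615 and 562 in WT tumor and 1878 and 2409 in WT nontumor libraries. The WT differences were -1.83 ± 0.260 for Rps27 and -1.85 ± 0.144 for Rps27l. Of 17 p53 targets tested, 1 was lower and 2 higher with a tumor in B-EBi3-, and 8 were lower and 6 higher in WT. Over all genes tested, 18.5% were lower and 14.1% higher in B-EBi3-, and 40.1% lower and 39.6% higher in WT, so these counts set the targets little apart. Of the remaining paralogs, Rpl3l, known from heart and skeletal muscle, had at most 4 reads and Rpl10l, a testis retrogene, at most 1 read in a library, and neither was tested.

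For 3 genes most reads stood under the name of a processed pseudogene. Rpl26 had 1243 and 1039 normalized counts in B-EBi3- tumor, 1540 and 1519 in B-EBi3- nontumor, 486 and 489 in WT tumor and 2001 and 2424 in WT nontumor libraries, against 24455 to 89305 for Gm15772, whose sequence is 99.5% identical. Rpl30 stood beside Gm12191 (99.7% identical) and Rpl34 beside Rpl34-ps1 (99.4% identical) in the same way, with 631 to 1675 and 90.4 to 526 counts for the genes and 21737 to 63138 and 15911 to 72739 for the copies. To show how little separates them, stretches of 60 coding bases around the first differing base (in capitals) are printed from GENCODE M21. They cover coding bases 147 to 206 of Rpl26, 66 to 125 of Rpl30 and 102 to 161 of Rpl34, and over the whole coding sequence the pairs differ at 2, 1 and 2 bases.
Rpl26 (chr11): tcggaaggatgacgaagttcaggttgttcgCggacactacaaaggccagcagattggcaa
Gm15772 (chr5): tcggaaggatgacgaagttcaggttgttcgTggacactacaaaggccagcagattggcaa
Rpl30 (chr15): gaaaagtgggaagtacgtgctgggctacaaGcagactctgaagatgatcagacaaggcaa
Gm12191 (chr11): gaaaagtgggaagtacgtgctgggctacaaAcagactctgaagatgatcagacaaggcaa
Rpl34 (chr3): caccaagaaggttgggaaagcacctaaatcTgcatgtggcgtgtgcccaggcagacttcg
Rpl34-ps1 (chr6): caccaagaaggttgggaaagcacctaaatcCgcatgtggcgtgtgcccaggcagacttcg

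The split between each gene and its copy is uncertain, so the values of Rpl26, Rpl30 and Rpl34 alone are uncertain too. Summed with their copies they lay among the other genes. Rpl26 with Gm15772 had 59404 and 58914 normalized counts in B-EBi3- tumor, 74187 and 81912 in B-EBi3- nontumor, 29611 and 24944 in WT tumor and 90163 and 91729 in WT nontumor libraries. The summed tumor differences were -0.40 (Rpl26), -0.36 (Rpl30) and -0.53 (Rpl34) in B-EBi3- and -1.74, -1.37 and -2.05 in WT, and all 6 were called lower. Rpl34 by itself was at -0.20 ± 0.190 in B-EBi3- (limma adjusted p = 0.430), and Rpl26 by itself at -0.53 ± 0.114 between nontumor groups, against -0.22 when summed. Averaged over the 8 libraries, no other member had a counted near-identical copy with more than 5% of its own counts. The closest was Rpl21, with a mean of 60333 against 2286 for BC004004. Many members also have annotated near-identical copies without any counts here, such as Rpl7a with 31 and Rps2 with 26. Reads from such copies could not be told apart from those of the gene.

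**Figure D5:**
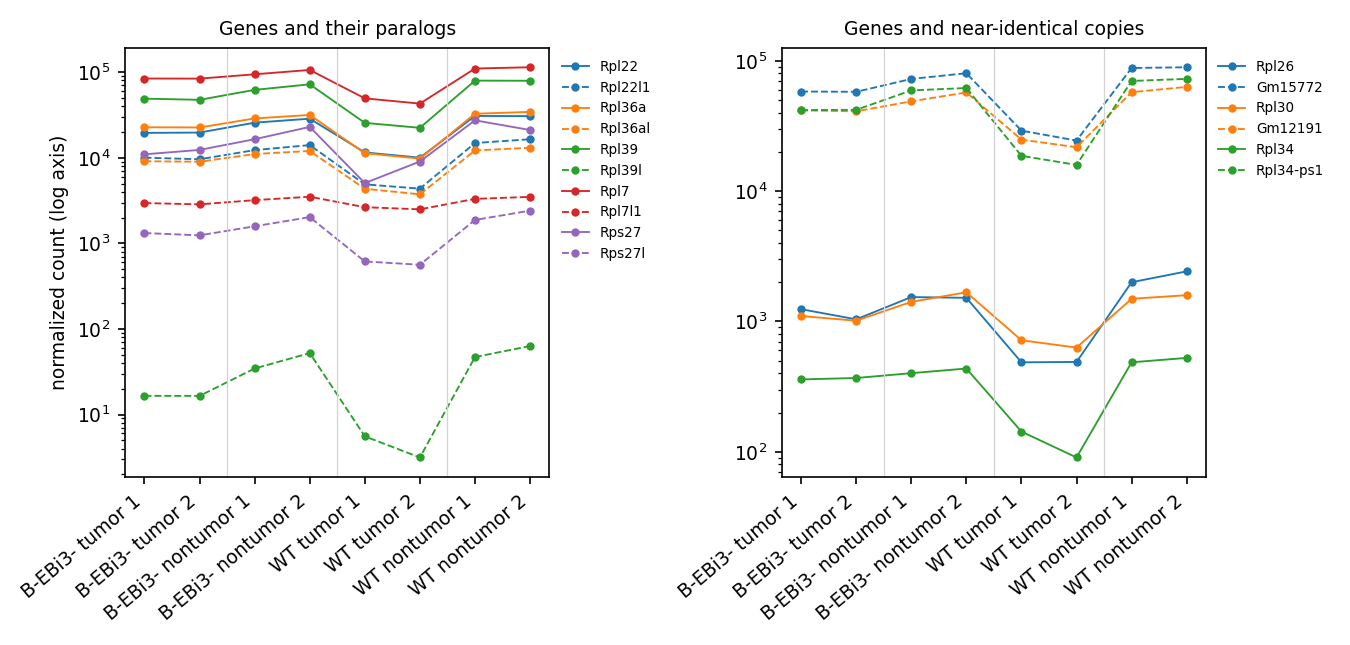
Normalized counts (y axis, log scale) in the 8 libraries (x axis) of genes and their paralogs (left) and of Rpl26, Rpl30 and Rpl34 with near-identical copies (right), genes as solid and paralogs or copies as dashed lines of the same color. Rpl39l lies lowest and dips to 5.56 and 3.15 in WT tumor libraries, Rpl7l1 stays nearly level, and the copies lie far above the genes in the right panel.

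Ribosomal protein genes that the naming rule leaves out behaved in the same way. Fau, whose product carries a small-subunit protein fused to a ubiquitin-like part, had 56432 and 57601 normalized counts in B-EBi3- tumor, 80112 and 76122 in B-EBi3- nontumor, 22100 and 16122 in WT tumor and 89446 and 93895 in WT nontumor libraries, and its tumor differences were -0.45 ± 0.137 in B-EBi3- and -2.28 ± 0.137 in WT. Gnb2l1, the scaffold protein Rack1 of the small subunit, differed by -0.36 ± 0.116 in B-EBi3- and -1.66 ± 0.116 in WT, both called lower. Rps3a1, added after its values were seen, differed by -0.28 ± 0.109 in B-EBi3- (limma adjusted p = 0.0739, not called) and by -1.27 ± 0.109 in WT (called).

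Among other genes of translation, most elongation factors were lower with a tumor, and the other lists were less even. For comparison, 18.5% of all genes were called lower and 14.1% higher in B-EBi3-, and 40.1% lower and 39.6% higher in WT. Of 7 elongation factors, 5 were called lower in B-EBi3- and 7 in WT, with medians of -0.36 and -1.17. Eef1b2, the exchange factor for Eef1a, fell in both, at -0.36 ± 0.0980 in B-EBi3- and -1.63 ± 0.0980 in WT. Of 28 initiation factors and Pabpc1, 16 were called lower and 1 higher in B-EBi3- and 19 lower and 5 higher in WT (medians -0.27 and -0.68). Summed, they took 1.02% to 1.06% of reads in all 8 libraries. The higher one in B-EBi3- was Eif4a2, a helicase that unwinds mRNA leaders, at 0.59 ± 0.128. Of 8 other TOP mRNAs, 2 were lower in B-EBi3-, near the share over all genes. In WT 7 were lower and 1 higher, among them Tpt1, at -1.43 ± 0.117.

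Genes that make or signal to ribosomes did not share one direction. Of 34 ribosome biogenesis genes, 7 were lower and 6 higher in B-EBi3-, and 15 lower and 13 higher in WT. These shares are near those over all genes (18.5% lower and 14.1% higher in B-EBi3-, 40.1% and 39.6% in WT). In WT Nhp2, a snoRNP protein, fell by 1.81 ± 0.146 and Mdn1, a giant ATPase that strips factors from the pre-ribosome, rose by 2.71 ± 0.214. RNA polymerase I genes were lower for 1 and higher for 2 of 14 in B-EBi3-, and lower for 4 and higher for 6 in WT. Of 22 genes of the mTORC1 pathway and TOP regulation, 2 were lower and 4 higher in B-EBi3-, and 7 lower and 15 higher in WT. The median of this list in WT, 0.74, became 0.07 with the length and GC trend removed. Mtor itself rose by 0.50 ± 0.111 in B-EBi3- and 1.54 ± 0.111 in WT, and Eif4ebp1, the inhibitor of cap binding, fell by 0.70 ± 0.129 and by 1.71 ± 0.129, in B-EBi3- and in WT. Of 8 Myc family genes tested, 2 were lower and 1 higher in B-EBi3-, and 5 lower and 3 higher in WT. Myc itself rose by 0.60 ± 0.158 in B-EBi3- and fell by 0.90 ± 0.158 in WT.

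Markers of other cells moved with tumor status, and their part in the falls of ribosomal protein genes was not tested. All 14 erythroid markers tested were lower in both genotypes, at 0.325% to 0.334% of reads in B-EBi3- tumor, 1.25% to 1.78% in B-EBi3- nontumor, 0.0869% to 0.123% in WT tumor and 0.737% to 0.790% in WT nontumor libraries. Monocyte and macrophage markers were lower for 13 of 14 in B-EBi3- and all 14 in WT, at 0.290% to 0.292%, 0.438% to 0.548%, 0.0551% to 0.0625% and 0.486% to 0.530% of reads in the same groups. Granulocyte markers were lower for 9 of 11 in B-EBi3- and all 11 in WT and stayed at or below 0.0208% of reads. Cell cycle genes were lower for all 20 in B-EBi3- and for 18 of 20 in WT, where 1 was higher, and took 0.105% to 0.106% of reads in B-EBi3- tumor, 0.210% to 0.213% in B-EBi3- nontumor, 0.102% to 0.105% in WT tumor and 0.186% to 0.213% in WT nontumor libraries. Dendritic cell markers were lower for 5 of 10 in B-EBi3- and 8 of 10 in WT, where 1 was higher. T cell markers were lower for 1 and higher for 1 of 10 in B-EBi3-, and lower for 8 in WT. Summed, the T cell list took more reads with a tumor. It stood at 0.0296% in B-EBi3- tumor against 0.0240% to 0.0246% in B-EBi3- nontumor libraries. In WT it stood at 0.0256% to 0.0265% with a tumor against 0.0221% to 0.0238% without. Of all genes, 18.5% were called lower and 14.1% higher in B-EBi3-, and 40.1% lower and 39.6% higher in WT. Platelet markers were lower for 0 of 9 in B-EBi3- and 7 of 9 in WT, and NK cell markers for 0 and 7 of 8. Plasma cell markers were higher for 6 and lower for 1 of 7 in B-EBi3-, and higher for 1 and lower for 4 in WT. No marker of these lists was at 0 reads in both libraries of a group.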

How the data were processed

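Polyadenylated RNA of 8 libraries was sequenced paired-end after stranded library preparation, per the labels. Per the submitters' processing notes, Salmon, DESeq2 and mm10 were used (version numbers: not given in the sources used here). Normalized counts (signal) were deposited by the authors in 1 table. In it each library's values are whole multiples of 1 step, so reads were recovered for 100% of values (tolerance 0.01). Date names stood in place of 27 symbols. Values plus 1 were put on the log2 scale, and 13011 genes with a mean of at least 10 were fitted with limma 3.58.1 in R 4.3.3 (1 mean per group, prior variance following the mean, with two-sided tests). Adjustment was by Benjamini-Hochberg over these genes within each of 5 comparisons with calls below 0.05. The fit was tested on simulated data. Levels per length used coding length, and near-identical copies were coding matches of at least 95% identity over at least 80% of length (GENCODE M21). Alternatives were DESeq2 1.42.0 and edgeR 4.0.16 with recovered reads, other scalings and left-out libraries.

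The member rule uses names alone, but these genes and the other lists were chosen with earlier results of these data known. Genes given with values are the paralogs and their parents, the stalk genes, Rpsa, the genes at both ends of each comparison (up to 3 of each subunit), the 10 with the lowest p between nontumor groups, and up to 4 of each other list. The labels do not say whether replicates are separate animals, so p-values measure the spread between libraries, which may be technical. A few genes of the lists are not reported here.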

Additional observations from a re-analysis of the deposited data

Results flagged for a closer look

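The tumor effect differed between B-EBi3- and WT mice by the interaction term, where 80 of 81 ribosomal protein genes were called, all towards a smaller fall in B-EBi3-. Of the members at both ends of that difference, the log2 values that passed the threshold were 2.10 for Rpl39l, 1.94 for Rpl34, 1.89 for Rpl36, 0.65 for Rpl30 and 0.56 for Rpl4. Rpl39l rests on few counts (5.56 and 3.15 normalized counts in WT tumor libraries), Rpl30 and Rpl34 each share their sequence with a far more abundant copy, and the WT tumor libraries differ from all others in sex and title prefix. Summed with their copies, Rpl30 and Rpl34 differed by 1.01 and 1.53.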

How the results depend on the processing

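Depth did not limit these genes, other than Rpl39l, Rpl3l and Rpl10l. The calls of the tumor effect in WT (81 lower), of B-EBi3- against WT in tumor mice (80 higher) and of the interaction (80 higher) kept within 1.5 times their number in every alternative run, including each library left out (81, 79 to 80 and 78 to 80). With the title number as a replicate block, a fit possible in WT alone and with numbers not said to pair libraries, the tumor effect in WT also had 81 lower. In the tumor effect in B-EBi3- mice (71 lower), 40 were lower with no filter, where 1894 of 18237 genes were. Quantile normalization gave 6 lower and 1 higher, and removal of the length and GC trend gave 34 lower. Far fewer were called with the B-EBi3- tumor libraries averaged as 1 sample, an alternative chosen after seeing the data. The same held with either of them or B-EBi3- nontumor replicate 2 left out. Opposite calls appeared in WT as 4 higher with quantile normalization and 1 with the trend removed, and between tumor groups and in the interaction as 1 lower with each. DESeq2 called 1 gene lower between nontumor groups.

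Directions turned as follows, in log2 units. With quantile normalization the tumor effect in WT was 0.22 for Rpl21, 0.61 for Rpl4, 0.19 for Rpl7 and 0.12 for Rps4x. That in B-EBi3- was 0.19 for Rpl4, 0.13 for Rpl7, 0.0693 for Rps4x and 0.0137 for Rps6. Between nontumor groups it was 0.0612 for Rpl4, 0.0266 for Rpl7, 7.5e-05 for Rpl7l1, 0.0186 for Rplp0, 0.10 for Rps4x and 0.0093 for Rpsa. Between tumor groups it was -0.13 for Rpl23, -0.36 for Rpl4 and -0.0377 for Rpl7, and in the interaction -0.42 for Rpl4 and -0.0643 for Rpl7. With the trend removed, Rpl7l1 stood at 0.23 in WT, 0.0510 between nontumor groups, -0.24 between tumor groups and -0.29 in the interaction. Rpl30 stood at 0.10 between nontumor groups, -0.12 between tumor groups and -0.23 in the interaction, Rpl34 at 0.0603 in B-EBi3- and Rps27 at -0.0502 between tumor groups. Between nontumor groups Rpl30 was at 0.0086 in edgeR and at -0.12 to 0.12 with each library left out, and Rpl7l1 at -0.0890 to 0.044. The causes were not tested.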
